A study of Mus musculus with 6 samples.

Results

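The ribosomal protein genes of mouse liver tumors and the copies of them that are counted as genes of their own were followed across cell classes and between stressed and control mice. Members were taken by symbol from the 34099 genes of the count tables. In all, 92 genes were found. Of these, 84 had the symbol of a ribosomal protein gene and are called parents here, 51 of the large and 33 of the small ribosomal subunit, and 8 had a symbol that ends in rt or in -ps with a number and are called copies. Unique molecular identifiers (UMIs), the random tags that let each captured RNA molecule be counted once, were summed for each mouse over the cells of each class that the authors annotated.

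A ribosome is built of ribosomal RNA and ribosomal proteins, shared between a small subunit that reads the mRNA and a large subunit that joins the amino acids. Because the proteins are needed together, in set proportions, the genes for them are transcribed together and strongly in growing cells, and their mRNAs begin with a stretch of pyrimidines, the TOP motif, through which mTOR signaling sets their translation. Their abundant, short mRNAs have been copied back into the genome many times, which left intronless copies that are nearly the same in sequence. Some of these copies are transcribed, and some keep an open reading frame.

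The tumors were of H22, a murine hepatocellular carcinoma line grown as ascites and then placed in the left lateral lobe of the liver of wild type male C57BL/6J mice, obtained at 8 weeks of age. 3 stress mice went through chronic unpredictable mild stress for 21 days before the tumor cells were placed. 3 control mice carried the same tumor cells and were housed without stressors. Each mouse gave a separate 10x Genomics Chromium library of the whole tumor tissue, so the cells are mixed and H22 cells and host cells share a library. The control matrices name Cell Ranger 9.0.0 and the stress matrices Cell Ranger 7.1.0, so the counting software and the stress itself cannot be told apart.

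The annotation held 58794 cells of 61374 barcodes in 10 classes and 28 clusters, with 149558935 to 187728350 UMIs per mouse and a median of 7166 to 20478 UMIs per cell. Any pair of libraries shared 13 to 40 barcodes. The cells were 29638 tumor cells, 11433 endothelial cells (ECs), 6307 labelled as inflammatory myeloid, 6260 monocytes, 2490 NK/T cells, 1556 dendritic cells (DCs), 457 B cells, 350 monocytic myeloid-derived suppressor cells (M-MDSCs), 175 neutrophils and 128 HSCs. Of 5 defining markers fixed for each class, ECs, NK/T cells, DCs, B cells, neutrophils and HSCs had all 5 at their highest level in their own class, monocytes 4, and tumor cells and inflammatory myeloid cells 3. The class labelled M-MDSCs had 0 of its 5 markers highest there, while the summed level of the 5 tumor markers was 547 to 859 counts per 1e+06 UMIs (CPM) in its mice, near the 695 to 974 CPM in tumor cells, so the label is kept only as a name. Neutrophils and HSCs had fewer than 10 cells in a mouse and are described without a test.

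Of the copies, Rpl10-ps3, Rps27rt, Rpl9-ps6 and Rps18-ps6 matched their parents on the same strand at 99.08 to 100% of aligned bases. Of all windows of 100 bases, 95.8% of those of Rpl10-ps3, 88% of those of Rps27rt and 80.2% of those of Rpl9-ps6 were found letter for letter in the parent, but only 39% of those of Rps18-ps6. Most windows of Rps18-ps6 thus held at least 1 base not matched in Rps18, and whether reads were assigned by these bases is not known. Rpl37rt, the copy with the most UMIs (259935), was not compared with Rpl37 by sequence here, and Rpl27rt aligned with Rpl27 over 24 bases only. In GENCODE M21 (GRCm38), 5 copies have a transcript with a single exon. They are Rps27rt (chr9:114982366-114982739, minus strand), Rpl10-ps3 (chr9:50344201-50344968, minus strand), Rps18-ps6 (chr13:97760072-97760632, minus strand, listed there as Gm10260), Rpl9-ps6 (chr19:32465865-32466578, minus strand) and Rpl27rt, and all 5 are annotated as protein coding. Their parents Rps27 (chr3:90212522-90213651, minus strand), Rpl10 (chrX:74270812-74273135, plus strand), Rps18 (chr17:33951999-33956001, minus strand) and Rpl9 (chr5:65388364-65391444, minus strand) are spliced. The coding sequence of Rps27rt is the same as that of Rps27 at all 255 bases, and it is shown once for both because no read that lies within it can be given to one gene rather than the other by its letters.
Rps27: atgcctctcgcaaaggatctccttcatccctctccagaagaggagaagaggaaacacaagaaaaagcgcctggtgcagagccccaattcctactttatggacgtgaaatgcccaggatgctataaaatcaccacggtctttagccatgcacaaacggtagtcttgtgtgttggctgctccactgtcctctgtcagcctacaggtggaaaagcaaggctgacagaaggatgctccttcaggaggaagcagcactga

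Rpl10-ps3 likewise had 0 differing bases in its coding sequence of 645 bases, and its transcript matched Rpl10 without a break over 740 of its 768 bases. The last 150 coding bases, 496 to 645 from the first base of the start codon, are shown once for both genes, since this end lies nearest to the 3′ part of the mRNA.
Rpl10: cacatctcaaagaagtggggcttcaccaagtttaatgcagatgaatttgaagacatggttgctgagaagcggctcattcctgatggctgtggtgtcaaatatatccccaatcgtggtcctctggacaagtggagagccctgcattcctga

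Rps18-ps6 and Rpl9-ps6 differ from their parents by a few bases, and these are the letters that can tell the genes apart. Counted from the first base of the start codon and written with the parent's base first, Rps18-ps6 carries T186C, A337C, G371A and G431A, and Rpl9-ps6 carries G266A as its single difference in 579 coding bases. Capitals mark the differing bases in coding bases 310 to 459 of Rps18 and 236 to 296 of Rpl9.
Rps18: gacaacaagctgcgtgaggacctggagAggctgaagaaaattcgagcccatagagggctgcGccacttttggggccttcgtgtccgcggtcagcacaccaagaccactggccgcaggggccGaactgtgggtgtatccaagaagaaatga
Rps18-ps6: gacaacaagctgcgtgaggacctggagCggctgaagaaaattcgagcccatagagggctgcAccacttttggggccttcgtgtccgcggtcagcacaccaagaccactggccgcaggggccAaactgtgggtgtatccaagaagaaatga
Rpl9: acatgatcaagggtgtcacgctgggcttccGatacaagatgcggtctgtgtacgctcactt
Rpl9-ps6: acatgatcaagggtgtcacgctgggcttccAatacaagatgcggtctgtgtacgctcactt

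Over the whole aligned transcripts, identity was 99.08% for Rps18-ps6 over 545 bases and 99.86% for Rpl9-ps6 over 692 bases. Rps18-ps4 is a different case, a spliced noncoding RNA (chr13:97751112-97760965, plus strand, listed as the lincRNA Gm26619) that runs across Rps18-ps6 on the other strand and matches Rps18 in antisense. Rpl37rt (chr5:115102922-115110268) and Rplp2-ps1 (chr12:75630918-75631749) are placed by RefSeq on GRCm38.p6. How reads that match a copy and its parent were assigned is not given in the sources used here, so the split of UMIs within each pair is uncertain throughout.

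The start of the transcript was the other place where parents share letters. In the RefSeq promoter table (GRCm38.p6), 63 parents had a start site, and 34 of them (54.0%) held a C followed by at least 5 more pyrimidines (C or T) beginning within 10 bases of it, read on the transcript's strand only. The same was true of 4517 of 19511 genes of the count tables with a start site (23.2%), and of 1 of 3 copies. Windows of 10 bases before and 20 bases from the start are shown for 6 genes as examples, 4 with and 2 without the run, chosen from the members named further on and so not as a rate, with the pyrimidine run in capitals.
Rps27: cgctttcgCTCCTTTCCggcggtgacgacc
Rps27rt: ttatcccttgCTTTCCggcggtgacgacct
Rps6: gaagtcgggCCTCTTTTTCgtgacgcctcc
Rpl35: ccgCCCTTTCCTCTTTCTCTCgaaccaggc
Rpl10: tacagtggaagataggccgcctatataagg
Rpl37rt: caggccagagcccgcacccagcagtgcgtg
These windows lie at chr3:90213629-90213658, chr9:114982720-114982749, chr4:86857348-86857377, chr2:39005112-39005141 and chr5:115110249-115110278 on the minus strand for Rps27, Rps27rt, Rps6, Rpl35 and Rpl37rt, and at chrX:74270806-74270835 on the plus strand for Rpl10. The windows of Rpl10 and Rpl37rt held no such run. Only the start sites of this promoter table were read, so a run at another start of a gene would not be counted. For Rpl35, on the minus strand, the gene in GENCODE M21 begins at chr2:39005624, outside its window.

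Parents took a larger share of all RNA molecules in tumor cells than in monocytes, inflammatory myeloid cells and ECs. In tumor cells they took 24.4, 22.6 and 24.3% of the UMIs of control mice and 24.6, 20.7 and 23.9% of those of stress mice, a mean of 23.4% ± 1.5 (SD, n = 6 mice). The other classes followed with 22.2% ± 1.4 in M-MDSCs, 22.1% ± 1.91 in NK/T cells, 20.5% ± 4.16 in HSCs, 20.4% ± 1.52 in DCs, 18.4% ± 1.71 in B cells, 15% ± 1.98 in monocytes, 13.6% ± 1.14 in ECs, 9.56% ± 3.98 in neutrophils and 8.79% ± 4.59 in inflammatory myeloid cells. Among the first 5 classes adjacent means differed by less than their SDs, whereas the steps from DCs to B cells and from B cells to monocytes were larger than the SDs. The classes had been made by clustering these same counts, so the order is given as a description with no test. Both subunits contributed in like parts, with 12.2% from the large and 11.2% from the small subunit in tumor cells and 6.99% and 6.57% in ECs.

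The spread within a class came from single mice and clusters. In inflammatory myeloid cells control mouse 1 had 16.6% and stress mouse 1 had 11.7%, against 3.97 to 7.31% in the other 4 mice. The summed tumor markers in this class were 490 CPM in control mouse 1 and 59.7 to 262 CPM in the other mice, and their part in the share was not tested. Within the 10 tumor clusters the parents ran from 16.2% in cluster 17, whose cells had a median of 1852 UMIs, to 42.3% in cluster 21, with cluster 7 next at 30.4%. Within the 7 EC clusters they ran from 10.1% to 20.1%, and the highest were cluster 15, with a median of 1212 UMIs per cell and 20.1%, and cluster 16, with 14860 UMIs and 19.9%.

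**Figure D1:**
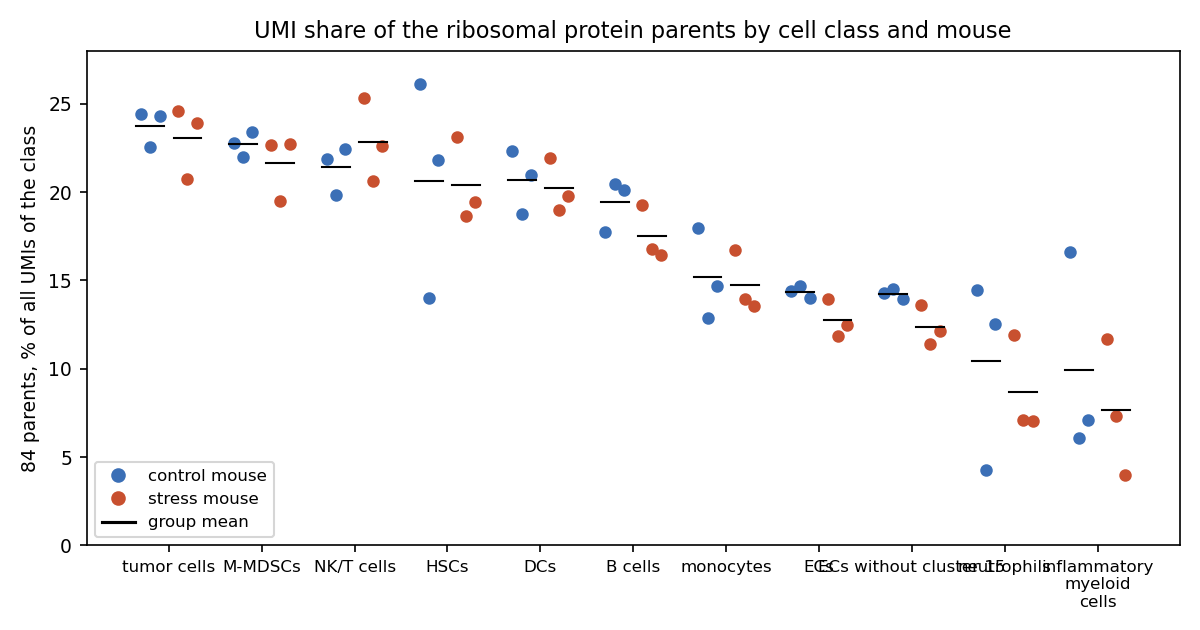
Percent of all UMIs of a class that fell on the 84 parents, with 1 point per mouse for control and stress and a line at each group mean, classes ordered by their mean over 6 mice. Tumor cells sit between 20.7 and 24.6%, and inflammatory myeloid cells spread from 3.97 to 16.6%.

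The parents rose and sank across classes nearly as one block. Of the 84, 79 had a mean of at least 100 CPM over the 8 classes with a test, and for these the ratio of the highest to the lowest class mean had a median of 2.84. The ratio was between 2 and 4 for 75 of them, below 2 for 2 and above 4 for 2. Inflammatory myeloid cells were the lowest class for 78 of the 79, and the highest class was tumor cells for 44, NK/T cells for 32, DCs for 2 and B cells for 1. Once each gene was taken as a percent of the parents' own UMIs, the median ratio was 1.33, and 76 of the 79 stayed under 2.

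Rpl29, a large subunit protein on chr9:106429454-106431568 (plus strand), stood outside this block. Among the 79 it was the single parent with its lowest level in tumor cells, at 26.8, 27.6 and 23.4 CPM in control and 35.1, 34.4 and 37.1 CPM in stress mice. Its means were 993 CPM in NK/T cells, 825 CPM in B cells, 785 CPM in monocytes, 465 CPM in DCs, 463 CPM in ECs, 140 CPM in inflammatory myeloid cells and 50.0 CPM in the class labelled M-MDSCs, which gives a ratio of 32.3 between NK/T and tumor cells. The ranges over 6 mice in tumor cells, 23.4 to 37.1 CPM, and NK/T cells, 789 to 1187 CPM, lay far apart. In the untested classes the means were 1277 CPM in HSCs and 385 CPM in neutrophils.

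The low level held in each tumor cluster, with Rpl29 between 24.1 and 70.9 CPM in the 10 of them. In ECs and in DCs the cluster lowest in Rpl29 was the one highest in the tumor marker Krt18, a keratin of simple epithelia. EC cluster 16 had 126 CPM of Rpl29 beside 263 CPM of Krt18, and the other 6 EC clusters had 589 to 822 CPM of Rpl29. DC cluster 19 had 163 CPM of Rpl29 and 315 CPM of Krt18, whereas DC cluster 20 had 1043 CPM of Rpl29 and 16.9 CPM of Krt18. The part of tumor RNA in these clusters was not tested. Over other clusters low Rpl29 and high Krt18 did not always go together. The NK/T cluster had 947 CPM of Rpl29 beside 137 CPM of Krt18, the HSC cluster 1259 beside 169 CPM and EC cluster 15 802 beside 110 CPM. The neutrophil cluster had 404 CPM of Rpl29 with 28.3 CPM of Krt18, and the inflammatory myeloid cluster 143 with 85.2 CPM.

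**Figure D2:**
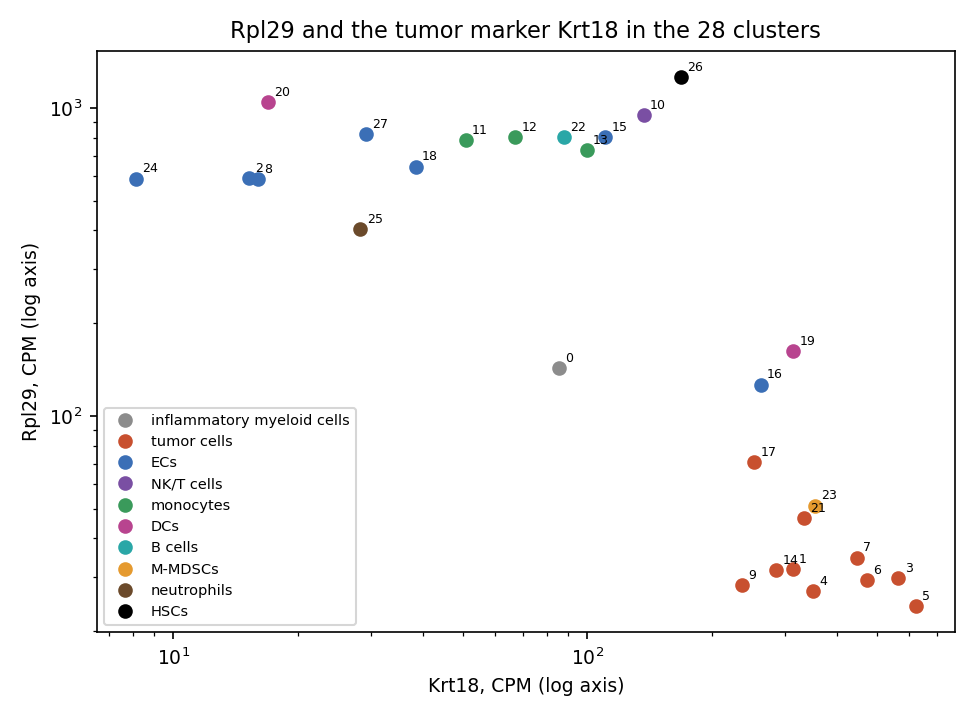
Rpl29 against the tumor marker Krt18 in CPM, both on log axes, with 1 point for each of the 28 clusters colored by class. The 10 tumor clusters lie between 24.1 and 70.9 CPM of Rpl29, and DC cluster 19 and EC cluster 16 lie below the other clusters of their classes.

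The parents next in ratio varied far less than Rpl29. Rpl39, a very small protein at the exit tunnel of the large subunit, had a ratio of 4.04, from 2350 CPM in NK/T cells to 581 CPM in inflammatory myeloid cells. Rps2 (3.65), Rpl13 (3.65) and Rpsa (3.51), which encodes the laminin receptor protein of the small subunit, were likewise highest in NK/T cells, at 3886, 4533 and 4428 CPM. The most even parents were Rps27 with a ratio of 1.46, Rps9 with 1.81, Rps29 with 2.20, Rpl10 with 2.28 and Rplp2 with 2.32. Rps27 ran from 1924 CPM in NK/T cells to 1321 CPM in inflammatory myeloid cells, so that it formed a larger part of the parents' UMIs where the others were low.

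**Figure D3:**
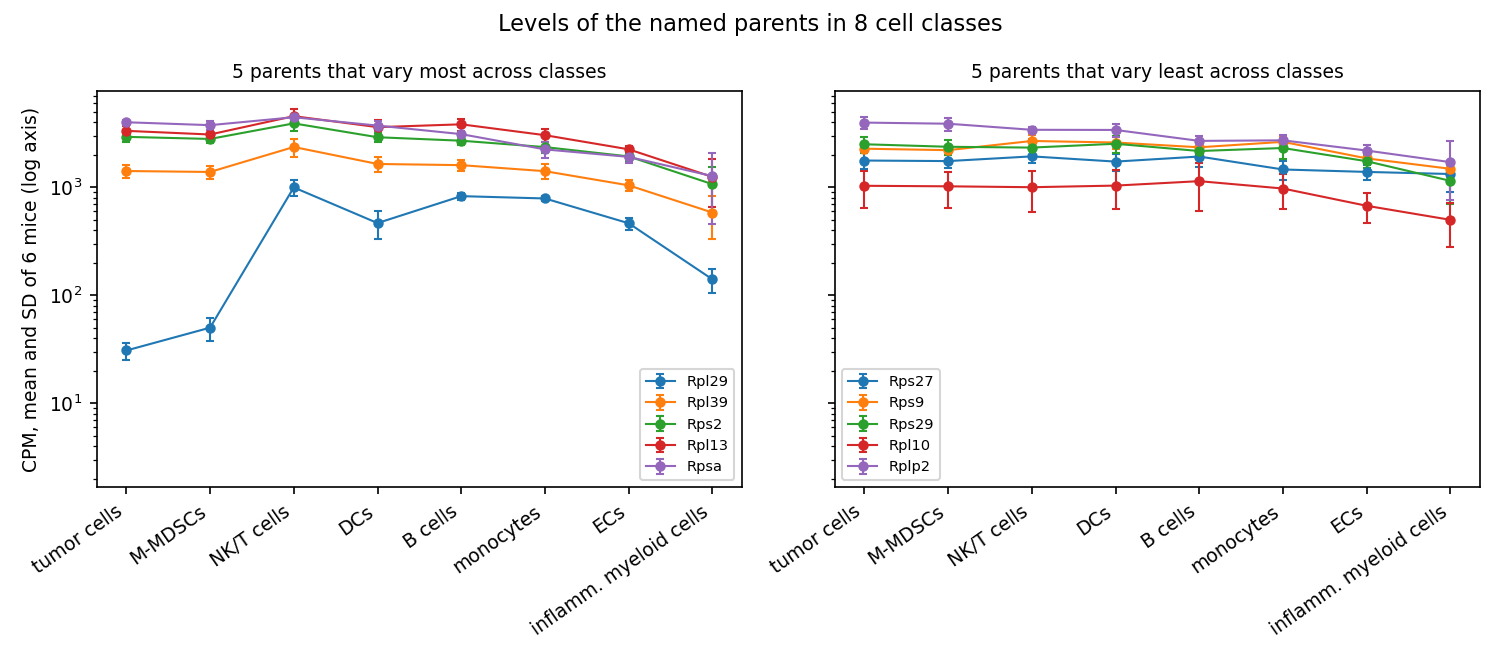
Mean CPM with SD over 6 mice on a log axis in 8 classes, for the 5 parents with the largest (left) and the 5 with the smallest (right) ratio between classes, where "inflamm." stands for inflammatory. Rpl29 drops to 30.8 CPM in tumor cells and 50.0 CPM in M-MDSCs, while the other 9 genes are all lowest in inflammatory myeloid cells.

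Of the paralogs known for tissue-bound expression, both testis forms were nearly silent here, while Rpl3l and Rps4l were low but found in some classes. Rpl10l, a testis form of Rpl10, gave 1 UMI in all 58794 cells, and Rpl39l, a testis form of Rpl39, gave 97 UMIs. Rpl3l, the form of Rpl3 known from striated muscle, gave 801 UMIs and was highest in inflammatory myeloid cells at 11.7 CPM and monocytes at 5.44 CPM, against 0.348 CPM in tumor cells. Rps4l, an intronless relative of Rps4x that M21 lists as a transcribed processed pseudogene although its symbol counts as a parent, gave 3529 UMIs. Its means were 27.1 CPM in ECs and 17.4 CPM in monocytes against 0.346 CPM in tumor cells, and in HSCs, with 6 to 50 cells per mouse, its values ran from 6.67 to 144 CPM.

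The paralogs Rpl22l1, Rps27l and Rpl7l1, which many tissues express beside their main genes, were common in most classes. Rpl22l1 had 698 CPM in tumor cells, 753 CPM in NK/T cells and 360 CPM in ECs. Rps27l, a target of p53, had 1001 CPM in tumor cells and 484 CPM in ECs, and Rpl7l1 had 102 CPM in tumor cells and 63.6 CPM in ECs. These 3 paralogs thus kept the order of the block, with more in tumor cells than in ECs. Rps4x, the X-linked small subunit protein, had 3526 CPM in tumor cells and 2301 CPM in ECs, and Rps27a, which is made as a fusion with ubiquitin, had 4480 and 2205 CPM. Among the stalk proteins that recruit elongation factors, Rplp0 had 4631 CPM in tumor cells and 1830 CPM in ECs, Rplp1 3773 and 3186 CPM, and Rplp2 3952 and 2178 CPM.

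Stress mice were then compared with control mice within each of the 8 classes, to ask whether ribosomal protein mRNAs differ in tumor and host cells of stressed animals. UMIs summed per mouse were fitted over all genes with edgeR's quasi-likelihood test, and p-values were adjusted over all genes tested (Benjamini-Hochberg, threshold 0.05). The members were chosen by symbol, but the set was selected on values of gene copies that stood out in earlier work on these data, so its counts describe these mice and are no independent support. Log2 fold changes are on the scale of edgeR's TMM normalization, and levels are in CPM. The scales differ in some classes, since the median over all tested genes of the log2 ratio of mean CPM was 0.13 in tumor cells, -0.13 in inflammatory myeloid cells and -0.12 in DCs, while the fitted medians were near 0.

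In tumor cells few parents passed the test, and in both directions. Of 82 parents tested, 3 rose and 6 fell, 11% in all, beside 21.4% of the 18856 genes tested (12% higher and 9.46% lower). The median over the 82 was -0.15 by the fit and -0.01 as a ratio of mean CPM beside -0.01 and 0.13 over all genes, so on both scales the parents' median was below that of all genes. The summed share differed by -0.683 percentage points between groups that overlapped, and by 0.486 points without stress mouse 2. In CPM, 14 parents lay above all control mice in all stress mice (28.2% of all genes tested) and 15 lay below (10.1%).

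Rpl10, which joins the large subunit last and whose loading readies it for translation, showed the largest rise. Its level was 675, 654 and 735 CPM in control and 1380, 1207 and 1517 CPM in stress mice. The log2 fold change was 0.85 ± 0.13 (SE, edgeR adjusted p = 0.0067). Every stress mouse was far above every control mouse. Rpl35, a large subunit protein near the exit tunnel, rose by 0.57 ± 0.15 (adjusted p = 0.037), from 862, 759 and 815 CPM to 1300, 1093 and 1593 CPM. Rpl29 rose by 0.31 ± 0.09 (adjusted p = 0.046) from its low level given above, again without overlap. Beside these values, the EC markers in tumor cells summed to 10.5 to 16 CPM in control and 19.4 to 27.9 CPM in stress mice, mitochondrial transcripts took 3.71 to 4.70% against 5.41 to 5.72% of UMIs, and 6 genes (Cmss1, Lars2, Gphn, Cdk8, Camk1d and Gm19951) took 0.0505 to 0.0628% against 0.180 to 0.324%. All 3 were higher in every stress mouse, as were the tumor markers themselves, at 695 to 741 CPM in control and 783 to 974 CPM in stress mice. The part of these in the tumor cell results was not tested.

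The parents that fell were Rps14, Rps15, Rpl14, Rpl27, Rps12 and Rpl41. Rps14, which lines the mRNA path of the small subunit, had 10598, 9379 and 9638 CPM in control and 7907, 6901 and 7443 CPM in stress mice, and fell by 0.55 on the log2 scale (SE 0.13, edgeR adjusted p = 0.025). The other falls were 0.54 for Rps15 (adjusted p = 0.019), 0.52 for Rpl14 (0.023), 0.45 for Rpl27 (0.033), 0.43 for Rps12 (0.047) and 0.37 for Rpl41 (0.040), and in all 6 genes every stress mouse was below every control mouse. Rps12 lay just inside the threshold, and Rps15a, with -0.51 and an adjusted p of 0.053, just outside. These calls hung on single mice, as without control mouse 1, control mouse 3 or stress mouse 3 in turn 1 parent remained past the threshold and without stress mouse 2 there were 2. Over all genes these fits called 8.86, 6.14, 11.1 and 9.88%. Rpl10 passed in each of 11 alternatives, Rpl29 in 5 and Rps12 in 3. The sizes changed less than the calls, since over all alternatives run Rps14 stayed between -0.65 and -0.47, Rps15 between -0.64 and -0.48 and Rpl14 between -0.64 and -0.45.

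Rps6, the kinase target of the small subunit that reports mTOR activity by its phosphorylation, was 1305, 1260 and 1199 CPM in control and 1772, 1479 and 1785 CPM in stress mice, with 0.28 ± 0.12 on the fitted scale (edgeR adjusted p = 0.14). The CPM groups were apart, but the gene did not pass. Rpl3l had a larger fitted difference of 1.41 ± 0.43 (adjusted p = 0.054) at 0.105 to 0.713 CPM over the mice, and did not pass either.

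In ECs the parents' summed share was lower in all stress mice, none of the parents passed the test, and the groups overlapped once EC cluster 16 was left out. Their share was 14.4, 14.7 and 14% in control and 13.9, 11.8 and 12.5% in stress mice, a difference of -1.62 points between groups that did not overlap. Without EC cluster 15 it was -1.88 points, and taken as the median over single cells -0.490 points. EC cluster 16, rich in parents and in Krt18, held 40.3, 30.6 and 33.7% of the EC UMIs of control and 33.8, 27.5 and 17.4% of those of stress mice. Without it the parents took 10.2, 12.4 and 10.5% against 10.8, 9.57 and 11%, a difference of -0.543 points between groups that overlapped, and the groups overlapped within each of the 7 EC clusters taken alone. Of 81 parents tested, 0 passed (0.213% of 14090 genes), 2 higher and 16 lower had an unadjusted p under 0.05 (7.22% and 8.43% of all genes), and DESeq2 called 10 (3.14% of the genes it tested). In CPM, 27 of the 81 lay below all control mice in all stress mice (10.3% of all genes) and 8 lay above (12.5%), and without cluster 15 these were 30 and 5. The median log2 fold change was -0.19, and -0.17 as a ratio of mean CPM. The summed tumor markers overlapped between the groups, at 195 to 274 CPM in control and 104 to 279 CPM in stress mice, and the EC markers were higher in all stress mice. Mitochondrial transcripts were also higher in ECs of all stress mice, at 2.76 to 3.2% against 3.23 to 4.21% of UMIs, and so were the 6 genes named for tumor cells, at 0.171 to 0.177% against 1.09 to 1.4%. With the mitochondrial genes or the 6 genes left out of the denominator, the parents' difference was -1.57 and -1.49 points.

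Rpl10 had 479, 499 and 498 CPM in ECs of control and 929, 746 and 876 CPM in ECs of stress mice, so its groups were far apart as in tumor cells, with 0.76 ± 0.13 and an edgeR adjusted p of 0.089. Rpl35 likewise was 453, 440 and 392 CPM against 646, 576 and 713 CPM (0.57 ± 0.12, adjusted p = 0.13). When the difference between the stress effects of ECs and tumor cells was itself tested, 0 of 83 parents and 0 of 7 copies passed, beside 0.13% of 19199 genes, and the lowest adjusted p among the parents was 0.26.

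Of the parents, Rpl10 passed the test in the most other classes. It rose in NK/T cells by 1.18 ± 0.16 (edgeR adjusted p = 0.0031), from 627, 576 and 702 CPM to 1354, 1235 and 1490 CPM, in DCs by 1.15 ± 0.16 (0.0040) and in M-MDSCs by 0.95 ± 0.15 (0.012). The call in M-MDSCs was lost without control mouse 1, control mouse 3 or stress mouse 1, at 0.88 to 1.01. In B cells it was 660, 575 and 740 CPM against 1709, 1420 and 1703 CPM (1.35 ± 0.26, adjusted p = 0.056), and in monocytes 743, 532 and 749 CPM against 1398, 1210 and 1187 CPM (0.95 ± 0.20, adjusted p = 0.16, and 0.97 with an adjusted p of 0.027 when the replicate number is a block). The groups thus did not overlap in any class but inflammatory myeloid cells, where they were 516, 246 and 378 CPM against 893, 545 and 407 CPM.

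Beside Rpl10, 2 more parents rose in NK/T cells and 2 in DCs. In NK/T cells 3 of 81 parents passed, all higher (0.536% of 11196 genes were higher and 0.857% changed in either direction), with Rpl35 at 0.96 ± 0.16 (edgeR adjusted p = 0.014) and Rps6 at 0.73 ± 0.15 (0.038), which went from 1066, 981 and 950 CPM to 1590, 1441 and 1675 CPM. In DCs 3 of 81 passed, all higher (2.13% of 10533 genes were higher and 2.64% changed in either direction), with Rpl35 at 0.74 ± 0.16 (0.036) and Rpl29 at 0.73 ± 0.18 (0.049). Rpl29 in DCs went from 320, 345 and 430 CPM to 665, 471 and 557 CPM, while the DCs also changed in make-up. The Rpl29-rich cluster 20 held 20, 109 and 41 cells of control and 71, 350 and 186 cells of stress mice, against 59, 160 and 117 and 70, 203 and 170 cells of the Rpl29-poor cluster 19. Within cluster 20 alone Rpl29 was 647, 972 and 1187 CPM against 1177, 991 and 1118 CPM, and within cluster 19 alone 191, 132 and 216 CPM against 200, 160 and 158 CPM, so the groups overlapped in each. Beside the rises in DCs, the summed markers of inflammatory myeloid cells in this class were 437 to 1101 CPM in control and 1686 to 2132 CPM in stress mice. The markers of NK/T cells were 0 to 32.9 and 43.5 to 88.2 CPM, the DC markers 1869 to 2462 and 3428 to 3721 CPM, and the 6 genes named above 0.0793 to 0.0991 and 0.284 to 0.412% of UMIs. All 4 were higher in every stress mouse. The tumor markers in DCs summed to 444 to 542 CPM in control and 319 to 459 CPM in stress mice, groups that overlapped. The part of all these in the DC results was not tested. Among 11 alternatives Rpl35 in NK/T cells passed in 8 and was lost without control mouse 1, control mouse 3 or stress mouse 1, at 0.89 or more. Rps6 in NK/T cells passed in 6, Rpl35 in DCs in 6 and Rpl29 in DCs in 5. In each of these last 3, leaving out any mouse but stress mouse 2 lost the call, and Rpl29 was also lost under RLE, while the log2 fold changes stayed between 0.68 and 0.82, 0.62 and 0.84, and 0.60 and 0.88.

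In the remaining classes the counts were low. With the replicate number as a block, which monocytes alone met the check for, 2 of 82 parents passed in monocytes, Rpl10 and Rps6 (0.62, edgeR adjusted p = 0.048), beside 1.67% of all genes. The labels tie no control mouse to a stress mouse, and the check used these same counts. The block fit is therefore no independent support, and without the block 0 of 82 parents passed there. In M-MDSCs 1 of 80 parents passed, Rpl10 (0.307% of 9443 genes higher, 0.561% in either direction), and 4 higher and 9 lower had an unadjusted p under 0.05 (4.78% and 4.79% of all genes). Mitochondrial transcripts there took 3.70 to 4.28% of UMIs in control and 5.05 to 6.18% in stress mice. The 6 genes named for tumor cells took 0.0480 to 0.0770% and 0.225 to 0.362%. Both were higher in every stress mouse, and their part in the M-MDSC results was not tested. In monocytes 0 of 82 passed (0.122% of 12251 genes, with 4 higher and 0 lower at an unadjusted p under 0.05 beside 6.02% and 5.98% of all genes). Mitochondrial transcripts in monocytes took 2.15 to 2.37% of UMIs in control and 2.67 to 3.38% in stress mice. The 6 genes took 0.115 to 0.123% and 0.596 to 0.754%, and the inflammatory myeloid markers 2307 to 4308 and 5126 to 8255 CPM. These were higher in every stress mouse, as were the NK/T, HSC and hepatocyte markers. The neutrophil markers were lower, at 112 to 216 and 25.2 to 76.7 CPM, and the part of all these was not tested. In B cells 0 of 80 passed (0.483% of 5796 genes, with 2 and 0 beside 5.71% and 5.43%) and in inflammatory myeloid cells 0 of 81 (0% of 9219 genes, with 0 and 0 beside 2.23% and 1.72%), all by edgeR. Read against these shares, the parents' higher calls at an unadjusted p in monocytes, B cells and M-MDSCs were near or below those of all genes. By DESeq2 the 6 classes other than tumor cells and ECs together gave 16 calls (1.68% of the tests over all genes there) where edgeR gave 7. The parents' medians ran from 0.20 (NK/T cells) and 0.12 (DCs) over 0.02 (monocytes), -0.04 (M-MDSCs) and -0.07 (B cells) to -0.22 (inflammatory myeloid cells), with the median of all genes within 0.02 of 0 in each.

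**Figure D4:**
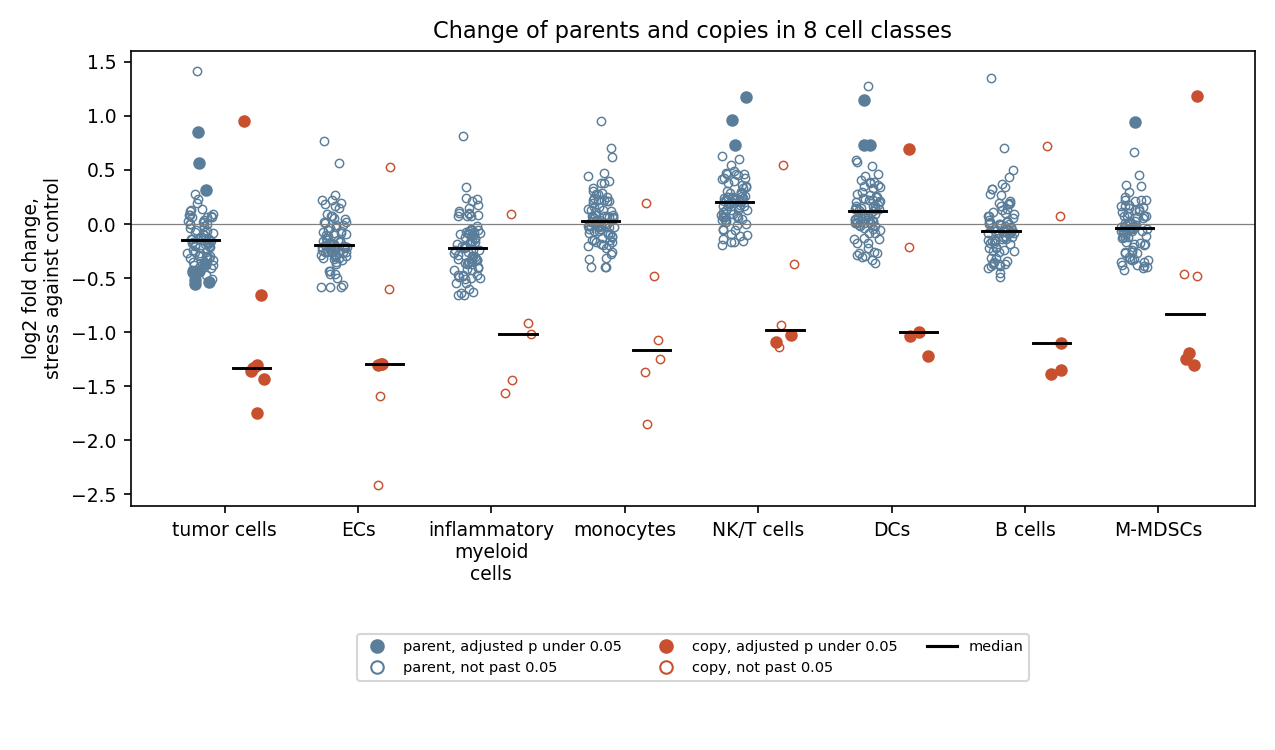
Log2 fold change, stress against control, from the edgeR fits in 8 classes, with 1 point per gene for parents (blue) and copies (red), filled where the adjusted p was under 0.05 and with a black line at the median. Parents cluster around medians between -0.22 and 0.20, and most copies lie near or below -1.

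NK/T cells and tumor cells differed in the stress effect on the parents. This test was run in each of the 7 other classes against tumor cells after the EC result was known, with a term for each mouse. In NK/T cells 30 of 83 parents had a more positive effect than in tumor cells and 0 a more negative one, beside 0.742% of 18462 genes in either direction (0.59% above 0). The median of the difference was 0.38 on the log2 scale beside 0.11 over all genes, and 0.23 beside -0.04 under RLE normalization. Each of the 6 other classes had 0 parents past the threshold, beside 0.13% of all genes in ECs, 0.0821% in inflammatory myeloid cells, 0.0634% in monocytes, 1.37% in DCs, 0.54% in B cells and 0.229% in M-MDSCs. Of the 30, Rplp1 had the largest difference, 0.59 ± 0.08 (edgeR adjusted p = 0.0013), with 4799, 4415 and 4920 CPM in NK/T cells of control and 5239, 4385 and 5406 CPM in those of stress mice, against 4125, 3850 and 4331 and 3514, 3123 and 3696 CPM in tumor cells. Its level thus differed little in NK/T cells and was lower in tumor cells. The count rested on the scaling and on single mice, with 2 parents under RLE normalization, 3 when the members were left out of the TMM factors, and 0, 0, 1 and 3 without control mouse 1, control mouse 3, stress mouse 1 and stress mouse 3. The median difference in these 4 fits was 0.33, 0.38, 0.23 and 0.41, beside 0.08, 0.06, -0.01 and 0.13 over all genes, of which 0.277, 0.283, 0.498 and 1.02% passed. The parents' median thus lay 0.25, 0.31, 0.24 and 0.28 above that of all genes, beside 0.27 with all mice, so in these 4 fits calls were lost with a difference of like size. Without control mouse 2, 45 parents passed (2.83% of all genes), but the median lay only 0.14 above (0.42 beside 0.28). Without stress mouse 2, 32 passed (2.35% of all genes) and it lay 0.32 above. The tumor markers in NK/T cells summed to 263 to 360 CPM in control and 113 to 340 CPM in stress mice. The DC markers summed to 32.4 to 42.5 CPM and 111 to 176 CPM there, and the 6 genes named above took 0.0719 to 0.0800% and 0.443 to 0.662% of UMIs, both higher in all stress mice, and their part in the difference was not tested.

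The copies were lower in stress mice in most classes. Their summed share in tumor cells was 0.107% ± 0.0132 in control and 0.0626% ± 0.0027 in stress mice (SD, n = 3), and in ECs it was 0.0663% ± 0.0071 and 0.0321% ± 0.0049. In 8 of the 10 classes the share was lower in every stress mouse than in every control mouse, the exceptions being inflammatory myeloid cells and HSCs. Rplp2-ps1 had 0 UMIs among 1024315175, which allows up to 0.00293 CPM, counting error only.

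In tumor cells 7 of 8 copies could be tested and all 7 passed, 6 lower and 1 higher, beside the 21.4% of all genes given above. Rpl37rt fell by 1.36 on the log2 scale (SE 0.15, edgeR adjusted p = 0.0041), from 430, 296 and 372 CPM to 163, 153 and 157 CPM. Rps27rt fell by 1.44 (SE 0.17, 0.0044), from 272, 179 and 223 CPM to 98.0, 83.1 and 93.8 CPM. Rpl9-ps6 fell by 1.31 (SE 0.14, 0.0039), from 276, 270 and 246 CPM to 131, 123 and 98.1 CPM. These 3 copies had less than the lowest control level in each stress mouse, beside 10.1% of all genes tested. The same was seen in each of the 10 tumor clusters taken alone. The clusters hold cells of the same 6 mice and so are not replicates, and the share over all genes was not taken per cluster.

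Rpl10-ps3 fell by 0.65 (SE 0.11, edgeR adjusted p = 0.010), from 122, 106 and 121 CPM to 86.8, 83.1 and 75.3 CPM, whereas its parent Rpl10 rose. Rps18-ps6 was the copy that went the other way, with 88.1, 75.8 and 76.6 CPM in control and 169, 153 and 192 CPM in stress mice, a rise of 0.95 (SE 0.12, 0.0048). The groups were apart for Rpl10-ps3 in 9 and for Rps18-ps6 in 10 of the 10 tumor clusters, again cells of the same 6 mice. Shares over all genes are at hand only for tumor cells as a whole, where 28.2% of the genes tested were above and 10.1% below in all stress mice. Rps18-ps4, the antisense RNA over the same locus, fell by 1.75 (SE 0.20, 0.0042) at 1.94 ± 0.286 against 0.635 ± 0.0584 CPM, so that sense and antisense RNA at this place moved in opposite directions. Without known strandedness of the counting, reads of the pair cannot be told apart with certainty. Rpl27rt fell by 1.34 (SE 0.13, 0.0036) at 12.8 ± 0.861 against 5.58 ± 0.581 CPM.

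**Figure D5:**
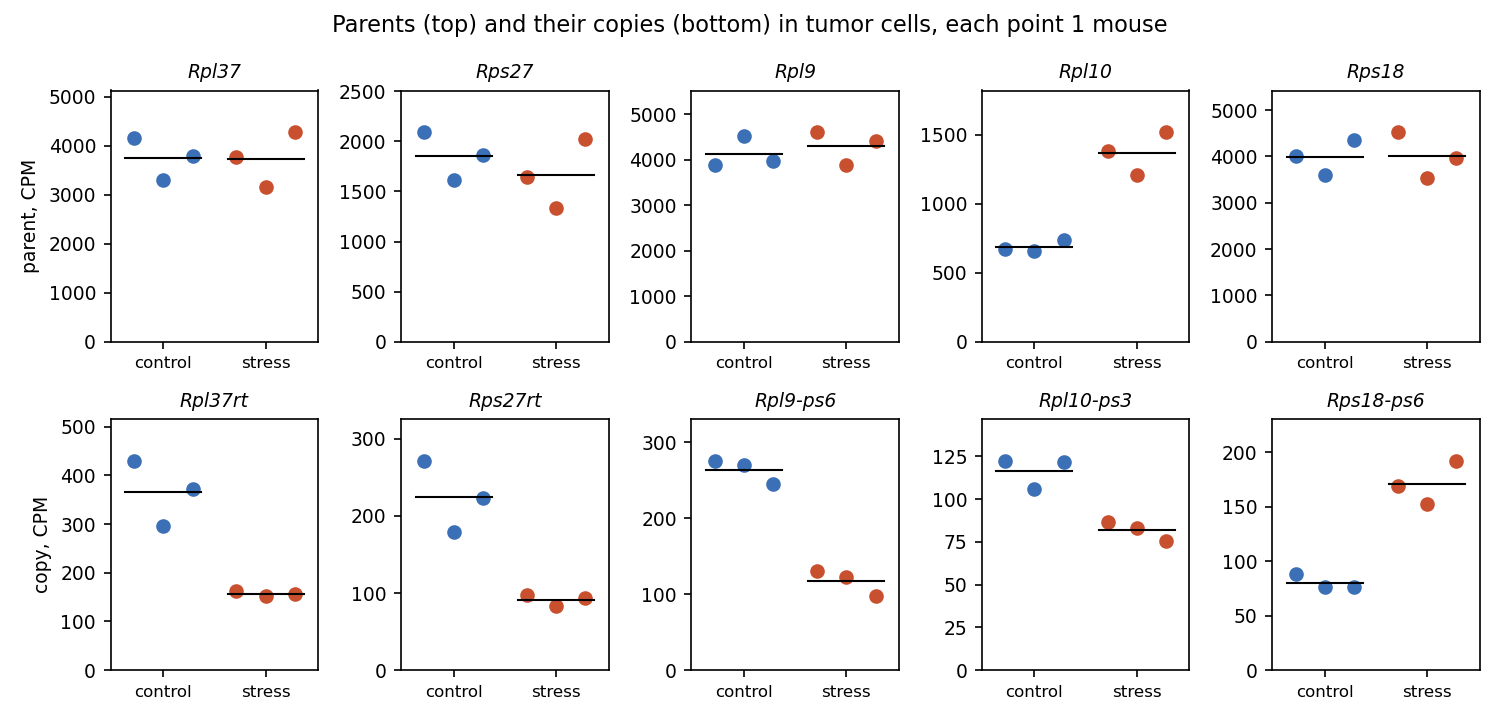
CPM of parents (top row) and their copies (bottom row) in tumor cells, with 1 point per mouse and a line at each group mean, axes starting at 0. Rpl37rt, Rps27rt, Rpl9-ps6 and Rpl10-ps3 are lower in all 3 stress mice and Rps18-ps6 is higher in all 3, while of the parents shown Rpl10 is higher in all 3 and the groups of Rps27, Rpl37, Rpl9 and Rps18 overlap.

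The same copies were lower in other classes. In ECs 3 of 7 copies passed, all lower (0.106% of all genes were lower), by 1.30 for each of Rpl37rt (edgeR adjusted p = 0.025), Rps27rt (0.038) and Rpl9-ps6 (0.038), with Rpl37rt at 227, 169 and 191 CPM against 85.7, 82.5 and 74.0 CPM. 6 of the 7 lay below all control mice in every stress mouse, beside 10.3% of all genes tested. Leaving out control mouse 1, control mouse 3, stress mouse 2 or stress mouse 3 left 0 copies past the threshold in ECs and leaving out stress mouse 1 left 1, while the falls stayed between 1.14 and 1.46. The summed share of the copies was lower in every stress mouse in each of the 7 EC clusters taken alone, which hold cells of the same mice. Rpl37rt and Rpl9-ps6 fell in NK/T cells, 2 of 6 copies tested there (0.322% of genes lower). Rpl37rt, Rps27rt and Rpl9-ps6 fell in B cells (3 of 5, 0.173% of genes lower), DCs (3 of 5, 0.513%) and M-MDSCs (3 of 6, 0.254%), the class with tumor markers near the level of tumor cells. Rps27rt passed in 6 of 11 alternatives in DCs and was lost without control mouse 1, control mouse 3 or any one stress mouse, at -1.11 to -0.80. It passed in 7 of 11 in M-MDSCs, where it was lost without control mouse 1, control mouse 3, stress mouse 2 or stress mouse 3. Rps27rt and Rpl9-ps6 in B cells passed in 7 of 11 each and were lost without control mouse 3 or any one stress mouse. Rpl9-ps6 was lost without control mouse 1 or stress mouse 3 in DCs, and without these or control mouse 3 in NK/T cells, where Rpl37rt was lost without control mouse 1 or control mouse 3. In B cells Rpl37rt passed in 3 of 11 alternatives and was lost by DESeq2, with the block and without any one mouse, at values between -1.14 and -1.04. Rps18-ps6 rose in DCs by 0.70 (edgeR adjusted p = 0.045) and in M-MDSCs by 1.19 (0.010), and its call was lost in DCs without any one mouse, at values between 0.62 and 0.78, and in M-MDSCs without control mouse 3, at 1.08. In monocytes 0 of 6 (0.0163% of genes lower) and in inflammatory myeloid cells 0 of 5 (0%) passed by edgeR, with 4 lower and 0 higher at an unadjusted p under 0.05 in each, beside the shares over all genes given for the parents. With the replicate block 3 of 6 copies passed in monocytes, all lower, beside 89 lower and 116 higher of 12251 genes (1.67% in either direction). They were Rpl37rt (-1.29, edgeR adjusted p = 0.041), Rps27rt (-1.03, 0.031) and Rpl9-ps6 (-1.25, 0.032). The medians over the copies lay between -0.84 and -1.34 in the 8 classes. In the test of the difference from tumor cells 0 copies passed in each of the 7 classes.

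For 4 pairs, the part of the pair's UMIs that was given to the copy lay in separate ranges in control and stress mice over the 8 classes. Rps27rt took 10.4 to 11.4% of the UMIs of Rps27 and Rps27rt together in the control means of the 8 classes, and 5.17 to 6.0% in the stress means. Rpl37rt took 6.80 to 9.18% and 3.62 to 4.56%, Rpl9-ps6 5.81 to 6.3% and 2.39 to 2.77%, and Rpl10-ps3 11.5 to 15.5% and 5.13 to 6.38%. Within a group these parts still varied over classes, most for Rpl37rt and Rpl10-ps3. The other pairs had ranges that overlapped between the groups. Rpl27rt took 0.131 to 0.319% in control and 0.0302 to 0.263% in stress means, and Rps18-ps4 0.0308 to 0.196% and 0 to 0.0445%. Rps18-ps6 varied by class, with 0.814 to 1.98% in control and 0.845 to 4.13% in stress means, and tumor cells went from 1.98% ± 0.221 to 4.12% ± 0.510. The version of the counting software differed between the groups in every class, and the software and the stress cannot be told apart.

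Adding the copies' UMIs to their parents left most parents where they were. In tumor cells the sum of Rpl10 and Rpl10-ps3 still rose, by 0.71 ± 0.12 (edgeR adjusted p = 0.010), as it did in NK/T cells (1.05), DCs (1.03) and M-MDSCs (0.83). The sums for Rps27 (-0.39, adjusted p = 0.16), Rpl37 (-0.22, 0.35), Rpl9 (-0.13, 0.51) and Rps18 (-0.10, 0.68) did not pass in tumor cells. The copy's mean fell from 117 to 81.7 CPM and the parent's rose from 688 to 1368 CPM. How reads shared by the pair were assigned or dropped is not known, so their part in the rise of Rpl10 was not tested.

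Other genes of the translation machinery are given for tumor cells beside the shares over all genes, 21.4% called, 12% higher and 9.46% lower. No test compared the lists with other genes. Of 20 translation factors and further TOP mRNAs, 0 rose and 5 fell, among them Eif3f (-0.69 ± 0.11, edgeR adjusted p = 0.0078) and Eif4b (-0.41), which act in initiation, and Eef2 (-0.68 ± 0.10, 0.0058) and Eef1a1 (-0.63), which move elongation along. Eef2 went from 870, 768 and 814 CPM to 556, 573 and 561 CPM. Of 24 ribosome assembly genes 1 rose, the small nucleolar RNA protein Nop58 (0.32), and 5 fell, Fbl (-0.50), Nob1 (-0.46), Gar1 (-0.41), Pes1 (-0.39) and Ubtf (-0.34). Of 78 genes of the mitochondrial ribosome 2 rose, Mrpl27 (0.52) and Mrps31 (0.37), and 10 fell, led by Mrpl45 (-0.66) and Mrpl14 (-0.55). The medians of the 3 lists were -0.15, -0.03 and -0.09, beside -0.01 over all genes. In the other 7 classes none of the 3 lists had a gene past the threshold by edgeR, apart from Mrpl44 in DCs (-0.75, adjusted p = 0.046).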

How the data were processed

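For each of 3 control and 3 stress mice, the deposited matrix holds UMI counts without normalization, made by the authors from a 10x Genomics library. The submitters' notes name Cell Ranger, Seurat and mm10, and the file headers name Cell Ranger 9.0.0 for control and 7.1.0 for stress. Aligner settings and the gene annotation were not given in the sources used here. Per cell, another deposited file gives the mouse, the cluster, the cell type and a UMI count, and its cells carry the study's filters. Doublets were not called again.

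UMIs were summed per mouse and class, and levels are counts per 1e+06 UMIs (CPM). Classes with at least 10 cells in every mouse were fitted by the quasi-likelihood test of edgeR 4.0.16 (R 4.3.3, low counts removed by filterByExpr, TMM factors, Benjamini-Hochberg over all genes tested, threshold 0.05). Differences of stress effects between classes were tested as an interaction with a term for each mouse. DESeq2 1.42.0, RLE, TMM without members, no filter, a minimum log2 fold change of 0.15, copies added to parents, the replicate number as a block and leaving out each mouse were alternatives. The comparison of NK/T and other classes with tumor cells, the values per cluster and the shares without EC clusters 15 and 16 were added after the data were seen. In simulated data edgeR recovered 171 of 196 changed genes with 9 false calls in tumor cells (18599 genes) and 166 of 194 with 7 in ECs (13914 genes). These data had the same fixed dispersion for every gene and changes of the same size, not taken from these mice. The recovery thus checks the code and does not measure the power of the fits.

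The check for the block was that each control mouse correlates best with the stress mouse of the same number, in deviations from the group means. Only monocytes met it. Same-numbered mice correlated there at 0.476, 0.422 and 0.146, and the block is given beside the results. In each of the other 7 classes at least 1 pair was under 0.1 (in tumor cells 0.496, 0.390 and -0.130). These correlations came from the same counts, and the labels tie no control mouse to a stress mouse.

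Members and lists were chosen with earlier results of these data known. Always named were the tissue-varying paralogs, stalk proteins, Rpsa, Rps6, Rps4x, Rps27a and copies of at least 10 CPM, then the 5 parents with the largest and the 5 with the smallest class ratio, and the parents and copies past the threshold, at most 5 parents per direction. Rpl41, Rpl7 and Rpl8 were named after their values were seen. 1 gene of the translation factor list is not reported here by name. Of the 34099 genes, 32061 were found in GENCODE M21, with 84 parents and 6 copies among them. Sequences and positions are from GENCODE M21 and, for start windows and 2 copies, RefSeq GRCm38.p6. The p-values set a difference against the spread between mice, 3 per group, with edgeR's estimate of that spread drawing on all genes. Those of the interaction compare classes within a mouse. Floors cover counting error only.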

Additional observations from a re-analysis of the deposited data

Results flagged for a closer look

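The stress effect on parents differed between NK/T cells and tumor cells for 30 of 83 parents by the interaction test in edgeR, beside 0.742% of 18462 genes. Among the parents named by rule, the log2 fold change in NK/T cells minus that in tumor cells was 0.585 for Rplp1, 0.526 for Rps15, 0.481 for Rps6, 0.452 for Rps12, 0.426 for Rps29, 0.424 for Rpsa, 0.422 for Rplp2, 0.402 for Rpl13, 0.380 for Rps14 and 0.364 for Rps15a, with adjusted p-values from 0.0013 to 0.035. The count fell to 0 without control mouse 1 and without control mouse 3, while the parents' median difference was 0.33 and 0.38 beside 0.08 and 0.06 over all genes, against 0.38 beside 0.11 with all mice. Without control mouse 2, where 45 parents passed, it was 0.42 beside 0.28. Under RLE normalization 2 parents passed and with TMM factors that leave out the members 3, beside 0.249% and 0.265% of all genes.

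2 members had all stress mice above all control mice in one class and below them in another, in CPM. Among genes tested in all 8 classes this was so for 2 of 85 members (2.35%) and for 362 of 5436 genes (6.66%), so the share of the members was below that of all genes and is not a result about them. Rpl7, a large subunit protein, was above in NK/T cells (2462, 2252 and 2462 against 2565, 2549 and 2539 CPM) and below in tumor cells, ECs and M-MDSCs, and in tumor cells it was 2551, 2490 and 2622 against 2483, 2405 and 2430 CPM. Its difference between NK/T and tumor cells was 0.41 ± 0.09 (edgeR adjusted p = 0.036). Rpl8, another large subunit protein, was above in tumor cells (2684, 2821 and 2724 against 3095, 2971 and 2863 CPM) and NK/T cells and below in ECs (1625, 1696 and 1676 against 1618, 1489 and 1271 CPM), but its fitted log2 fold change in tumor cells was -0.02, so the direction there turned with the scaling. Its difference between ECs and tumor cells was -0.28 ± 0.10 (adjusted p = 0.34). Groups of 3 mice are too small for a test of single outlying mice.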

How the results depend on the processing

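The count of parents past the threshold moved with the method. In tumor cells it was 9 and became 21 by DESeq2 (26.5% of the genes it tested) and 20 with a block for the replicate number (27.0% of all genes), and leaving out one mouse gave 1 to 12 (6.14 to 29.9% of all genes). In ECs it was 0 and became 10 by DESeq2 and 1 without a filter on low counts (3.14% and 0.437% of all genes), and leaving out one mouse gave 0 to 0 (0.0208 to 0.319%). In the 6 other classes it was 7 and became 16 by DESeq2, 17 without a filter and 19 with the block (1.68%, 1.79% and 2.19% of the tests over all genes, against 0.804%), and 2 to 7 without one mouse (0.323 to 1.12%). Copies past the threshold in tumor cells stayed at 7 in each alternative run. In ECs they were 3 and became 5 by DESeq2 and 0 to 2 without one mouse, and in the 6 other classes 13 and 4 to 15. Of the 38 calls of named members 14 to 30 remained without one mouse, and none changed direction in an alternative run. Rpl10 in tumor cells, NK/T cells and DCs and the 7 copies in tumor cells passed in 11 of 11 alternatives. The difference between NK/T and tumor cells, 30 parents, became 2 under RLE normalization, 18 without a filter and 3 with TMM factors that leave out the members, and 0 to 45 without one mouse. Over all genes 0.742% passed, and 0.249%, 1.45% and 0.265% in these alternatives, 0.277% without control mouse 1 and 2.83% without control mouse 2, where the 45 arose. The difference in the parents' share in ECs, -1.62 points, became -0.490 points as a median over cells and -0.543 points without EC cluster 16. The difference in the copies' share in ECs, -0.0341 points, became -0.0265 points without cluster 16 and -0.0272 points without clusters 15 and 16. The cause of these moves was not tested. The labels tie the replicate numbers to no shared batch. The correlation of same-numbered mice was over 0.1 in every pair in monocytes only, and above 0 in every pair in each class but tumor cells. Depth limits Rpl10l, Rpl39l and Rplp2-ps1, which had 1, 97 and 0 UMIs.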
